A study of Mus musculus with 8 samples.

Results

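Interferon-stimulated genes are the genes that cells switch on after an interferon binds its receptor. A list of 48 such mouse genes was read as rows of a count table of 24108 named genes, over 4 sorted CD4 T cell populations, with the odd- and even-numbered columns of the table kept apart. Of the 48 genes, 44 had enough counts to be tested, among 13989 genes tested in all. Gbp3, Gbp7, Igtp and Ifi47, 4 interferon-inducible GTPases, were listed at 0 counts in all 8 libraries and have no further values. Exons of Gbp7, Igtp and Ifi47 overlap those of other genes, and those of Gbp3 do not. Gbp10, Ifi35, Rtp4 and Herc6 overlap other genes over a larger share of their exon bases than any of these and had counts. Whether the 0 counts come from the way reads were counted or from absent RNA was not tested.

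Type I interferons bind IFNAR1 and IFNAR2 and act through the kinases JAK1 and TYK2, which activate STAT factors. STAT2 and IRF9 are subunits of the resulting factor ISGF3, which binds the interferon-stimulated response element (ISRE) in the promoters of its target genes. Interferon-gamma binds IFNGR1 and IFNGR2 and acts mainly at another element, the gamma-activated site (GAS). The induced proteins restrict viruses and intracellular microbes, and many also adjust the strength of the interferon response itself. In regulatory T (Treg) cells and other T cells a low level of many of these genes is usual without infection.

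RNA was sequenced from CD4 T cells of the mesenteric lymph nodes, the nodes that drain the gut. Foxp3 encodes the factor that defines Treg cells, and the mice bore 2 marked versions of it, DTR-GFP (GFP together with the receptor for diphtheria toxin) and Thy1.1. All also carried CD4CreER/wt, a tamoxifen-activated Cre recombinase under CD4 control, and R26lsl-tdTomato/wt, which gives red fluorescence after Cre acts. The 4 populations, with 2 libraries each, were tdTomato+GFP+ cells, tdTomato+Thy1.1+ cells, and the tdTomato- cells with either GFP (tdTomato-GFP+) or Thy1.1 (tdTomato-Thy1.1+).

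All 4 populations shared the same history, per the series' design text. The mice were raised on AVNM, which the text does not spell out, with an amino acid-defined diet. Tamoxifen was given with diphtheria toxin over about 3 weeks. For GFP+ cells, whose Foxp3 version carries the toxin receptor, tdTomato thus marks CD4 T cells that were Foxp3-negative in that period. The mice were then moved to chow and colonized with SPF fecal microbiota, and the cells were sorted 12 days later. The labels used here state no age or sex, and leave unsaid whether libraries of 1 population are separate mice, pools or repeats. The spread behind each p-value may therefore be technical. No other role of Thy1.1 than as a marker is given, and no label attaches the toxin receptor to it. Whether tdTomato+Thy1.1+ cells were Foxp3-negative when labelled is therefore not known here.

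Columns of the table are numbered 1 and 2 for Thy1.1 populations and 3 and 4 for GFP populations, so each population has 1 odd-numbered and 1 even-numbered library. The labels do not say what a number marks, such as a mouse, a litter or a day. Depth ran from 38085686 to 47908198 counts per library, and the odd library was the deeper one in 3 of the 4 populations. A count of 3, the limit that a count of 0 allows, was worth between 0.0614 and 0.0806 CPM (counts scaled to library size), a limit that covers counting error only. In every library all 7 tested markers of CD4 T and Treg cells were detected and summed to 3870 to 4870 CPM, Foxp3 alone to between 126 and 201 CPM. Library 3 of tdTomato-GFP+ cells stood apart in Siglech, which marks plasmacytoid dendritic cells, with 36.8 CPM against at most 1.19 CPM elsewhere. Its 15 myeloid and dendritic markers summed to 351 CPM, against 116 to 197 CPM in the other 7 libraries. Library 3 of tdTomato+GFP+ cells stood apart in 4 erythroid markers, which summed to 47.5 CPM, against at most 5.37 CPM elsewhere. Its 6 markers of CD8 T and natural killer cells summed to 129 CPM, against at most 67.5 CPM elsewhere.

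Promoter letters are given first, since most of the 44 genes varied together. RefSeq promoters on GRCm38.p6, 250 bases before to 50 bases after the gene start, were found for 33 of the 44 tested genes. An ISRE-like run, spelled GAAANNGAAA and searched on both strands, stood in 18 of these 33 (54.5%), against 3.77% of 10766 tested genes with a promoter. A GAS-like run, TTCNNNGAA, stood in 8 of the 33 (24.2%), against 8.3% of the same tested genes. The 200 bases before the start are shown, 5′ to 3′ on the gene's strand, for 4 genes that differed widely between libraries and for Gbp2, which did not. Capitals mark the ISRE-like run, read on either strand, so TTTC at each end is the same element in the opposite orientation.
Isg15 (chr4:156200819-156201018, minus strand): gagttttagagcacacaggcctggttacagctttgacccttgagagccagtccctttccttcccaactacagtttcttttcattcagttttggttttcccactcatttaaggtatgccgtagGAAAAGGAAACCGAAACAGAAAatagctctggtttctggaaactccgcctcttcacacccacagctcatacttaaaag
Ifit1 (chr19:34640689-34640888, plus strand): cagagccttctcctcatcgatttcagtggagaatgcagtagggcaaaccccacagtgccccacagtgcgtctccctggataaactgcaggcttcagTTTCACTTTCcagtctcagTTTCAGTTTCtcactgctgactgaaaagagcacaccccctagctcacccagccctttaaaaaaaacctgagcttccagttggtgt
Ifit3 (chr19:34583329-34583528, plus strand): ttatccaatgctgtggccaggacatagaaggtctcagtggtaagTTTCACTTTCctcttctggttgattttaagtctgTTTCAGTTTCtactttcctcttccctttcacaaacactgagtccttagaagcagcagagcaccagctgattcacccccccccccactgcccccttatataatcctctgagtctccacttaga
Rsad2 (chr12:26456453-26456652, minus strand): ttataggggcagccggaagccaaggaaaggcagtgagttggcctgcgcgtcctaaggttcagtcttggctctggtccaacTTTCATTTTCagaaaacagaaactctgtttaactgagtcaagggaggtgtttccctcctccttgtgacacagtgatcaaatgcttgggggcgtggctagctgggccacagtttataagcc
Gbp2 (chr3:142620463-142620662, plus strand): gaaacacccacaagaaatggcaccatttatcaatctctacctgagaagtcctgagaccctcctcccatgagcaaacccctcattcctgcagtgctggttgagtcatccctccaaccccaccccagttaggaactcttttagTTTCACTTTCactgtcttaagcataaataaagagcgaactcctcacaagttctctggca
Isg15 held 3 overlapping matches, which together cover 22 bases, Ifit1 and Ifit3 held 2 separate ones each, and Rsad2 and Gbp2 held 1 each. A match is a description of the letters and not a binding site. Gbp2 thus carried the element although its level scarcely varied with the column number, as the values given further on show. Among genes past the threshold for odd against even columns the element stood in 14 of 26 (53.8%), and among those that missed it in 4 of 7 (57.1%). Apart from Gbp2, the tested genes that missed it still had every odd library below every even one. The shares therefore do not compare genes with and without a difference by column number.

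The number of the column, not the sorted population, went with most of the variation of these genes. In all 44 the fitted level was lower in odd than in even libraries, with a median log2 fold change of -1.33 and a range from -4.26 for Ifit3b to -0.26 for Gbp2, while the median over all 13989 genes was 0.013. In edgeR's quasi-likelihood test, with population in the model and Benjamini-Hochberg adjustment over all genes, 35 of the 44 (79.5%) were lower in odd libraries at an adjusted p under 0.05 and 0 were higher. The background was 0.465%, or 65 genes called, every one of them lower in odd libraries. Both the list and the split by column number were proposed with earlier results of these data known, so these p-values describe the libraries and are not independent evidence.

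The split held gene by gene. In 43 of 44 genes the odd library was the lower one in all 4 populations, with Gbp2 the exception, against 7.64% of all tested genes. In 39 of 44 all 4 odd libraries lay below all 4 even libraries, against 1.42% of all tested genes. The 5 genes that overlapped were Ifit2, Ifi208, Samhd1, Gbp2 and Sp100. On log2(CPM + 0.5), the column number took a median of 84.9% of a gene's sum of squares over the 8 libraries and the population 11.5%. Over all tested genes the medians were 5.17% and 65.7%. The column number took more than 50% in 41 of the 44 genes (93.2%), against 3.3% of all tested genes.

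**Figure D1:**
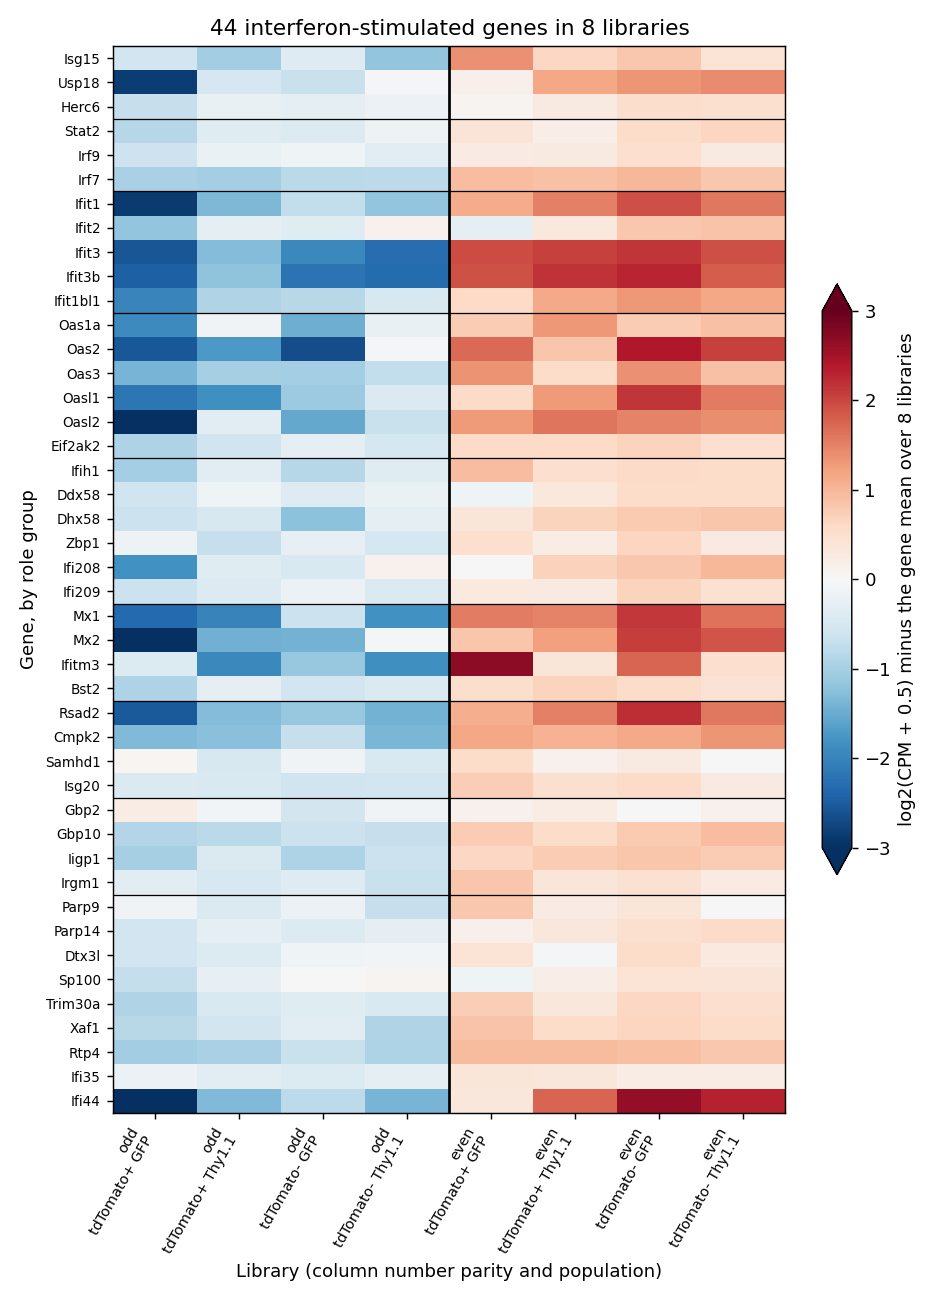
Each row is 1 of the 44 tested genes and each column 1 library, odd-numbered left of the black line and even-numbered right of it; colour gives log2(CPM + 0.5) minus the gene's mean over 8 libraries and saturates at 3 in either direction. Rows are grouped by role. In 39 of the 44 genes every odd library lies below every even one.

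The size of the difference varied with the population. The median log2 odd-over-even ratio, again on CPM + 0.5, was -1.66 in tdTomato+GFP+ cells, -1.17 in tdTomato+Thy1.1+ cells, -1.35 in tdTomato-GFP+ cells and -1.11 in tdTomato-Thy1.1+ cells. The corresponding medians over all tested genes lay between 0.0 and 0.02. The 44 genes were lower in the odd library in 43, 44, 44 and 44 cases in the same order of populations. With 1 odd and 1 even library each, a difference in size between populations leaves no residual degrees of freedom and has no test.

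The values that follow are CPM in the order tdTomato+GFP+, then tdTomato+Thy1.1+, then tdTomato-GFP+, then tdTomato-Thy1.1+, first for the 4 odd libraries and then for the 4 even ones. Fold changes are log2 odd over even with the standard error, and every adjusted p is from the same edgeR test over 13989 genes. In bulk RNA, fewer cells that express a gene and less of its RNA per cell cannot be told apart.

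All 3 factors of the response were lower in odd libraries. Irf7, the factor that amplifies interferon production, had 71.7, 69.5, 80.3 and 81.4 CPM in odd libraries, against 269, 261, 282 and 248 CPM in even ones. It had the smallest adjusted p of all tested genes (log2 fold change -1.81 ± 0.08, edgeR adjusted p = 0.000842), and its 4 populations were nearly level within each parity. Stat2, the ISGF3 subunit specific to type I and III interferon, had 79.4, 111, 107 and 128 CPM in odd libraries, against 187, 165, 209 and 225 CPM in even ones. Its groups did not overlap (log2 fold change -0.89 ± 0.11, edgeR adjusted p = 0.0226). Irf9, the DNA-binding subunit of ISGF3, had 142, 190, 199 and 176 CPM in odd libraries, against 259, 265, 312 and 263 CPM in even ones. Here too all odd values were below all even ones, at a log2 fold change of -0.64 ± 0.08 (edgeR adjusted p = 0.0211).

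ISG15 is a ubiquitin-like protein that is attached to other proteins, and all 3 genes of its cycle were lower in odd libraries. Isg15 itself had 25.1, 17.9, 28.5 and 16.2 CPM in odd libraries, against 97.4, 58.3, 66.4 and 50.3 CPM in even ones. The highest odd value was below the lowest even one (log2 fold change -1.63 ± 0.14, edgeR adjusted p = 0.00589). Usp18, the protease that removes ISG15 and damps IFNAR signalling, had 15.2, 79.9, 71.1 and 110 CPM in odd libraries, against 125, 252, 284 and 301 CPM in even ones. Its lowest value within each parity was in tdTomato+GFP+ cells, and its log2 fold change was -2.02 ± 0.24 (edgeR adjusted p = 0.0207). Herc6, the ISG15 ligase of the mouse, had 68.9, 94.3, 91.1 and 98.9 CPM in odd libraries, against 118, 134, 160 and 154 CPM in even ones. The log2 fold change of Herc6 was -0.68 ± 0.08 (edgeR adjusted p = 0.0207), and 23.8% of its 50-base stretches also occur in other genes, mainly Gm45193, so part of its counts may not be its own.

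IFIT proteins bind foreign RNA and block its translation, and all 5 of this family were lower in odd libraries, with a median log2 fold change of -3.08. Ifit3 had 6.61, 16.5, 10.6 and 8.11 CPM in odd libraries, against 162, 174, 186 and 160 CPM in even ones. Ifit3b, its close copy, had 2.73, 7.16, 3.29 and 3.03 CPM in odd libraries, against 65.7, 78.5, 85.2 and 61.1 CPM in even ones. Neither gene's groups came near each other, at log2 fold changes of -4.11 ± 0.21 for Ifit3 and -4.26 ± 0.24 for Ifit3b (edgeR adjusted p = 0.000996 for both). These 2 genes share 51.2% of the 50-base stretches of Ifit3 and 45.0% of those of Ifit3b with other genes, chiefly each other, so their counts cannot be fully separated. Ifit1, which binds RNA that lacks a methylated cap, had 9.63, 28.5, 44.4 and 32.2 CPM in odd libraries, against 159, 213, 283 and 223 CPM in even ones. The log2 fold change of Ifit1 was -3.08 ± 0.23 (edgeR adjusted p = 0.00289). Ifit1bl1 had 54.2, 116, 122 and 156 CPM in odd libraries, against 328, 475, 539 and 486 CPM in even ones (log2 fold change -2.10 ± 0.14, edgeR adjusted p = 0.00261). Ifit2 differed least of the family, at -0.86, and its odd and even values overlapped.

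**Figure D2:**
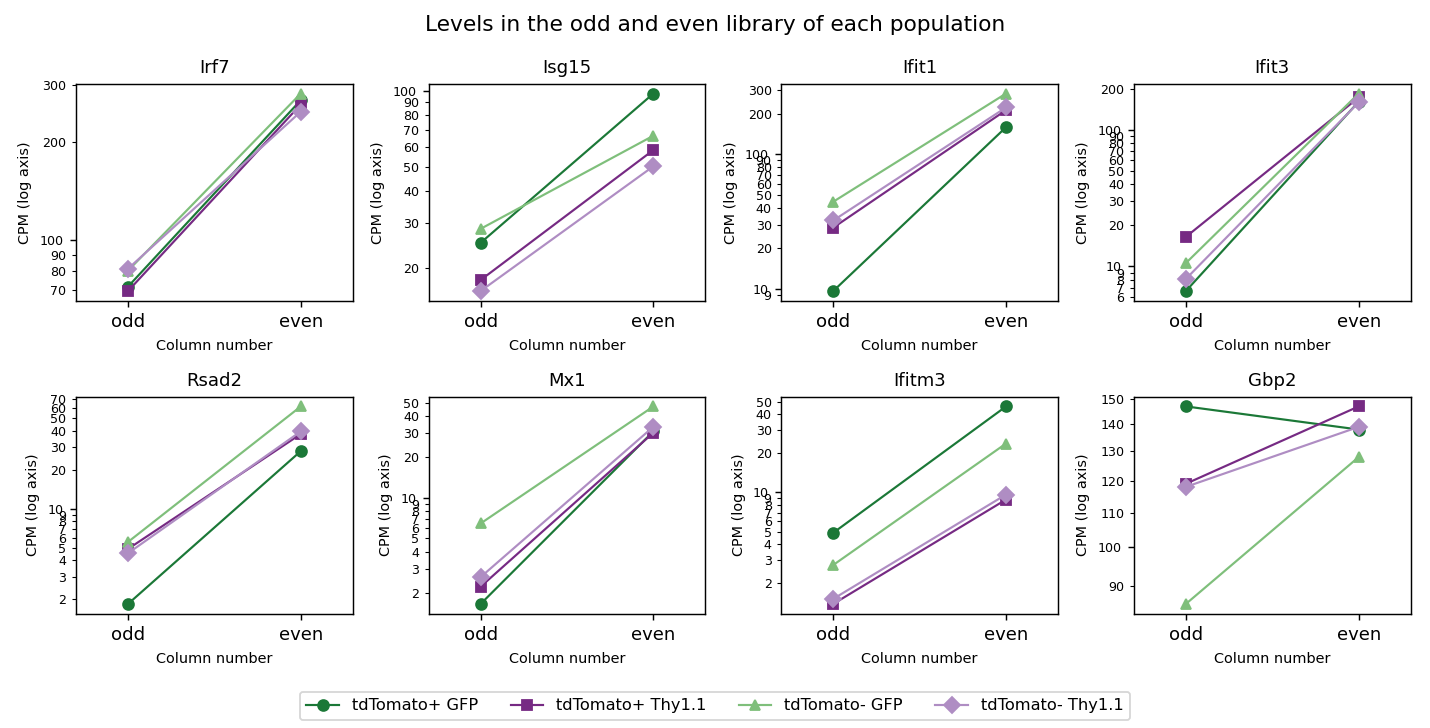
Each panel is 1 gene, with CPM on a log axis in the odd library (left) and the even library (right) of each population; lines join libraries of 1 population and colours and symbols give the population. Lines climb to the right in all populations for Irf7, Isg15, Ifit1, Ifit3, Rsad2, Mx1 and Ifitm3, and cross for Gbp2, whose tdTomato+GFP+ value is 147 CPM in the odd and 138 CPM in the even library.

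OAS enzymes make the signal that activates RNase L, and PKR halts translation, both on double-stranded RNA. In this group 3 of 6 genes passed the test, and the median log2 fold change was -2.52. Oas3, which senses long double-stranded RNA, had 13.2, 17.6, 17.3 and 21.3 CPM in odd libraries, against 91.2, 52.9, 93.6 and 66.6 CPM in even ones (log2 fold change -2.11 ± 0.22, edgeR adjusted p = 0.0121). Oasl1, which in mice limits Irf7 translation, had 1.56, 2.09, 3.89 and 6.46 CPM in odd libraries, against 13.3, 22, 40.5 and 27.2 CPM in even ones (log2 fold change -2.98 ± 0.28, edgeR adjusted p = 0.00757). In both genes the groups were apart. Eif2ak2, the gene of PKR, had 18.9, 24.0, 29.5 and 25.1 CPM in odd libraries, against 54.3, 55.1, 57.5 and 51.5 CPM in even ones (log2 fold change -1.18 ± 0.13, edgeR adjusted p = 0.015). Oas1a, Oas2 and Oasl2 missed the threshold, with edgeR adjusted p-values of 0.0501, 0.0678 and 0.0686 at log2 fold changes of -1.87, -3.72 and -2.92. Their standard errors were wider, at 0.28, 0.60 and 0.47, and the odd libraries of each were still all below the even ones. Oas1a shares 57.6% of its 50-base stretches with other genes, mainly Oas1g.

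Sensors of foreign or misplaced nucleic acid fell less, with 4 of 6 genes past the threshold and a median log2 fold change of -1.05. Zbp1, which senses Z-form nucleic acid and can trigger cell death, had 166, 115, 155 and 128 CPM in odd libraries, against 264, 215, 289 and 223 CPM in even ones (log2 fold change -0.82 ± 0.07, edgeR adjusted p = 0.00539). Ifi209, of the PYHIN family of DNA-binding proteins, had 204, 241, 283 and 236 CPM in odd libraries, against 391, 388, 510 and 439 CPM in even ones (log2 fold change -0.84 ± 0.06, edgeR adjusted p = 0.00289). Neither gene's groups overlapped. Ifi208, of the same family, had 39.7, 108, 102 and 154 CPM in odd libraries, against 140, 227, 245 and 282 CPM in even ones. Its highest odd value, 154 CPM in tdTomato-Thy1.1+ cells, passed its lowest even value, 140 CPM in tdTomato+GFP+ cells (log2 fold change -1.25 ± 0.15, edgeR adjusted p = 0.0181). Ifi209 shares 35.1% and Ifi208 26.0% of their 50-base stretches with other genes, mainly Ifi214 and Ifi213. Dhx58, the RNA helicase LGP2, passed at -1.33, and Ifih1 (MDA5) and Ddx58 (RIG-I) missed with edgeR adjusted p-values of 0.0581 and 0.0566.

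Of the MX and membrane restriction factors, 3 of 4 were lower in odd libraries, with a median log2 fold change of -3.25. Mx1, a dynamin-like GTPase that restricts influenza virus, had 1.65, 2.21, 6.45 and 2.60 CPM in odd libraries, against 30.7, 30.0, 46.8 and 33.2 CPM in even ones (log2 fold change -3.61 ± 0.25, edgeR adjusted p = 0.00261). Ifitm3, which hinders fusion of viral and cell membranes, had 4.90, 1.39, 2.77 and 1.52 CPM in odd libraries, against 45.9, 8.82, 23.8 and 9.64 CPM in even ones (log2 fold change -2.92 ± 0.22, edgeR adjusted p = 0.00289). Ifitm3 had the same order of populations in both parities, tdTomato+GFP+ highest and tdTomato+Thy1.1+ lowest. Bst2, or tetherin, which holds budding virions and also marks mouse plasmacytoid dendritic cells, had 35.4, 55.4, 44.8 and 49.9 CPM in odd libraries, against 97.9, 108, 99.5 and 91.8 CPM in even ones (log2 fold change -1.12 ± 0.12, edgeR adjusted p = 0.0121). Bst2 was not raised in library 3 of tdTomato-GFP+ cells, the library with Siglech. Mx2 missed the threshold at a log2 fold change of -3.57 ± 0.63 (edgeR adjusted p = 0.0996), with odd values between 0.113 and 4.57 CPM and even values between 8.78 and 21.4 CPM.

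All 4 nucleotide and nuclease enzymes were lower in odd libraries. Rsad2, or viperin, makes a nucleotide that stops viral polymerases, and had 1.85, 4.91, 5.56 and 4.55 CPM in odd libraries, against 27.9, 37.8, 61.7 and 39.6 CPM in even ones (log2 fold change -3.35 ± 0.20, edgeR adjusted p = 0.00149). Cmpk2, the nucleotide kinase encoded next to Rsad2 on chromosome 12, had 11.5, 12.1, 18 and 11 CPM in odd libraries, against 66.0, 61.2, 65.2 and 74.6 CPM in even ones (log2 fold change -2.36 ± 0.17, edgeR adjusted p = 0.00261). Both neighbours were separated by parity with a wide gap. Isg20, an RNA exonuclease, had 50.5, 49.4, 44.9 and 45.4 CPM in odd libraries, against 113, 94.6, 102 and 82.3 CPM in even ones (log2 fold change -1.03 ± 0.10, edgeR adjusted p = 0.00734). Samhd1, which degrades deoxynucleotides, had the smallest difference of the 4, at -0.49, and its groups overlapped.

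GTPases of the guanylate-binding and immunity-related families act on the vacuoles of intracellular microbes, and 3 of the 4 tested were lower in odd libraries. Gbp10 had 62.3, 64.8, 73.3 and 70.5 CPM in odd libraries, against 193, 167, 198 and 216 CPM in even ones (log2 fold change -1.51 ± 0.08, edgeR adjusted p = 0.000996). Its reads are the least certain of the list, since 82.5% of its 50-base stretches occur in other genes, mainly Gm43302. Iigp1 had 64.9, 96.4, 68.5 and 82.8 CPM in odd libraries, against 199, 222, 231 and 221 CPM in even ones (log2 fold change -1.50 ± 0.10, edgeR adjusted p = 0.00261). Irgm1, a regulator of the other GTPases of its family, had 132, 119, 128 and 105 CPM in odd libraries, against 298, 214, 229 and 200 CPM in even ones (log2 fold change -0.95 ± 0.08, edgeR adjusted p = 0.00539). Both were cleanly split by parity. Gbp2 was the exception: it had 147, 119, 85.7 and 118 CPM in odd libraries, against 138, 147, 128 and 139 CPM in even ones. These values overlapped, and the test gave a log2 fold change of -0.26 ± 0.11 (edgeR adjusted p = 0.723).

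Among the remaining 9 genes, which include the PARP9 complex and nuclear proteins, 7 were lower in odd libraries, with a median log2 fold change of -0.78. Rtp4 had 37.5, 39.9, 49.0 and 40.9 CPM in odd libraries, against 152, 151, 147 and 137 CPM in even ones (log2 fold change -1.82 ± 0.10, edgeR adjusted p = 0.000996). Xaf1, a partner of the apoptosis inhibitor XIAP, had 27.2, 33.2, 38.3 and 25.6 CPM in odd libraries, against 87.9, 71.6, 76.8 and 71.8 CPM in even ones (log2 fold change -1.32 ± 0.14, edgeR adjusted p = 0.0121). Parp14, an ADP-ribosyltransferase, had 68.4, 83.5, 75.7 and 82.7 CPM in odd libraries, against 113, 128, 142 and 151 CPM in even ones (log2 fold change -0.78 ± 0.08, edgeR adjusted p = 0.0121). None of these 3 genes had an odd value inside its even range. Rtp4 shares 11.6% of its 50-base stretches with other genes, mainly the overlapping Gm45338. Parp9, Trim30a, Ifi35 and Sp100 also passed, between -0.43 for Sp100 and -1.10 for Trim30a. Dtx3l, the ubiquitin ligase partner of PARP9, missed with an edgeR adjusted p of 0.154, and its exons overlap those of Parp9 on the other strand, which these strand-blind libraries cannot separate. Ifi44 was listed at 0 counts in odd tdTomato+GFP+ cells and reached 2.83 CPM in the other odd libraries, against 6.80 to 35.1 CPM in even ones (edgeR adjusted p = 0.0569).

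**Figure D3:**
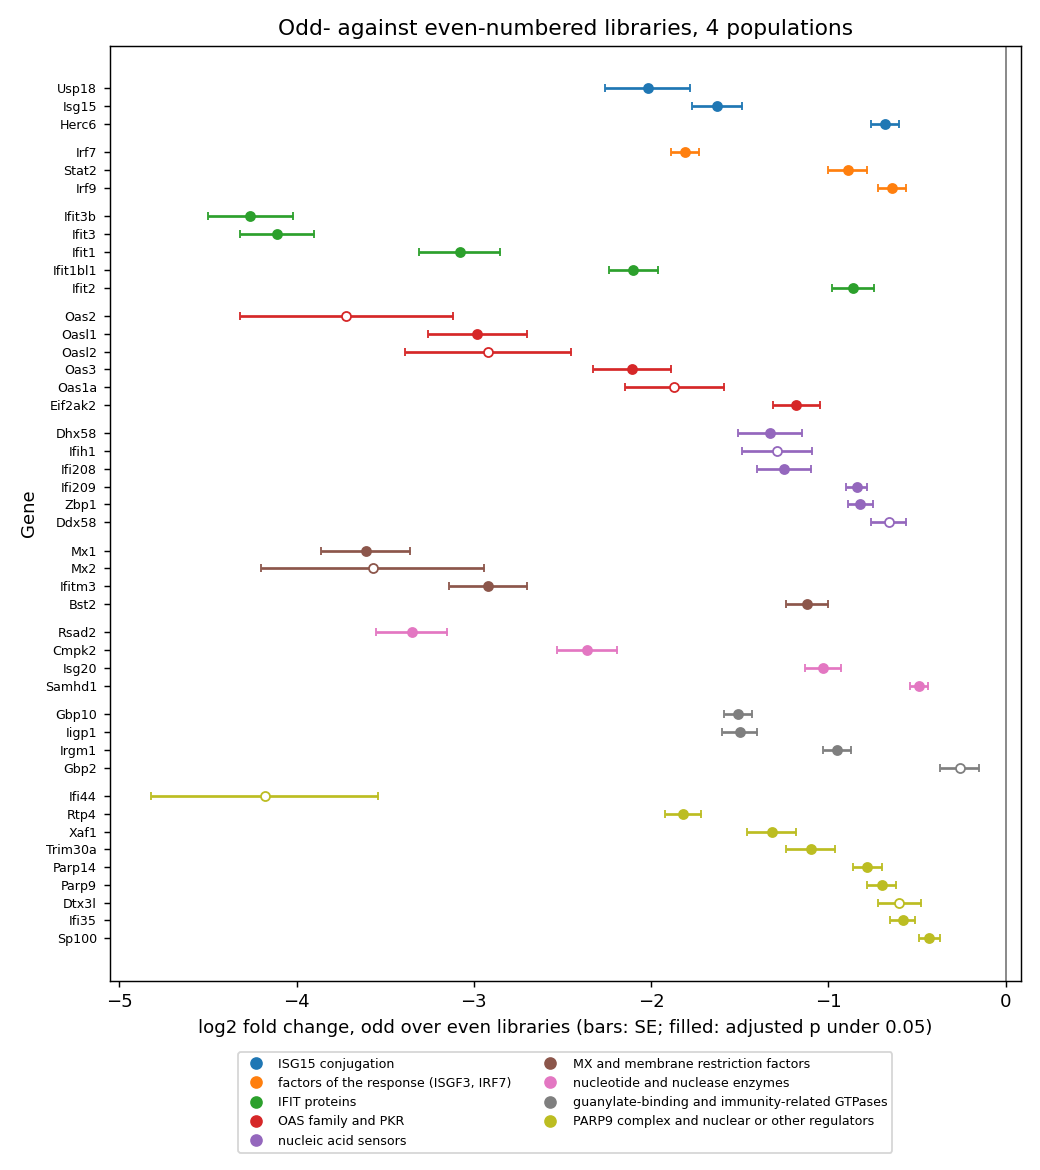
Points are fitted log2 fold changes of odd over even libraries for the 44 tested genes, bars are standard errors, colours are role groups, and filled points passed the edgeR test at an adjusted p under 0.05. All 44 points lie left of 0, and the medians of the MX (-3.25), IFIT (-3.08) and OAS (-2.52) groups are the lowest.

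The count of 35 depended on which libraries were included, and the direction of the median did not. It was lower at 21 without either library of tdTomato-GFP+ cells (numbers 3 and 4), at 22 without either library of tdTomato-Thy1.1+ cells (1 and 2), at 23 without library 1 and at 20 without library 2 of tdTomato+Thy1.1+ cells. Without library 3 or 4 of tdTomato+GFP+ cells it was 34 or 33. The median log2 fold change stayed between -1.43 and -1.32 over these 8 omissions, and 17 of the 35 genes passed in all of them. With both tdTomato-GFP+ libraries left out, which removes the library with Siglech, 19 genes passed and the median was -1.33. Calls over all tested genes fell from 65 to 27 in that fit, and they also fell in each of the 8 omissions.

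Other values were set beside this difference. Of 33 tested markers of other cell types, 0 passed in edgeR for odd against even columns, 5 had an unadjusted p under 0.05, and DESeq2 called 2. Of 20 handling stress genes, 0 passed in edgeR, 2 had an unadjusted p under 0.05, and DESeq2 called 0. Summed stress genes came to 3390, 2880, 3060 and 3020 CPM in odd libraries, against 3280, 2690, 2940 and 2610 CPM in even ones. Summed over 9 plasmacytoid dendritic markers, of which 6 to 9 were detected per library, levels came to 748, 399, 598 and 333 CPM in odd libraries, against 481, 305, 392 and 317 CPM in even ones. Both sums were higher in the odd library of each population, where the interferon-stimulated genes were lower. Ccr9, which T cells also express, gave 536, 153, 325 and 145 CPM of the odd and 283, 116, 179 and 120 CPM of the even sums of dendritic markers, and the defining gene Siglech was at 0 in 5 libraries. The part of these genes, of depth and of whatever the column number marks in the result was not tested.

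The other genes of the pathway were read from lists chosen with these results known. Of 65 further interferon-induced genes tested, 20 passed the edgeR test as lower in odd libraries and 0 as higher, with a median log2 fold change of -0.70 over the 65. At an unadjusted p under 0.05 edgeR gave 56 of the 65, and DESeq2 called 46, beside 975 and 229 of all 13989 tested genes. The 20 included Ifi214, Daxx, Ifi213, Ifi203, Lgals3bp and Ube2l6, the E2 enzyme that loads ISG15. Daxx, a nuclear histone chaperone, had the second smallest p among them, at -0.87 ± 0.08 (edgeR adjusted p = 0.00589). Together the 35 listed genes and these 20 made up 55 of the 65 genes called. The listed genes alone were 53.8% of those called.

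In other lists of the pathway fewer genes passed by column number, and the antigen presentation genes among them are themselves targets of interferon. Of 8 receptor and kinase genes, 6 negative feedback genes, 11 sensor adaptors and 14 antigen presentation genes, 0 passed in edgeR in either direction, with medians of -0.06, -0.04, -0.01 and -0.18 in that order. At an unadjusted p under 0.05 edgeR gave 1, 2, 2 and 8 of them, beside 975 of all 13989 tested genes. DESeq2 called 0, 1, 1 and 5, beside 229 over all tested genes. Antigen presentation genes, the ones with 5 calls by DESeq2, are induced by both kinds of interferon. Of 21 interferon genes 1 was tested, Ifng, which lay between 0 and 2.39 CPM, so differences in the ligands were not detectable in these cells at this depth.

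**Figure D4:**
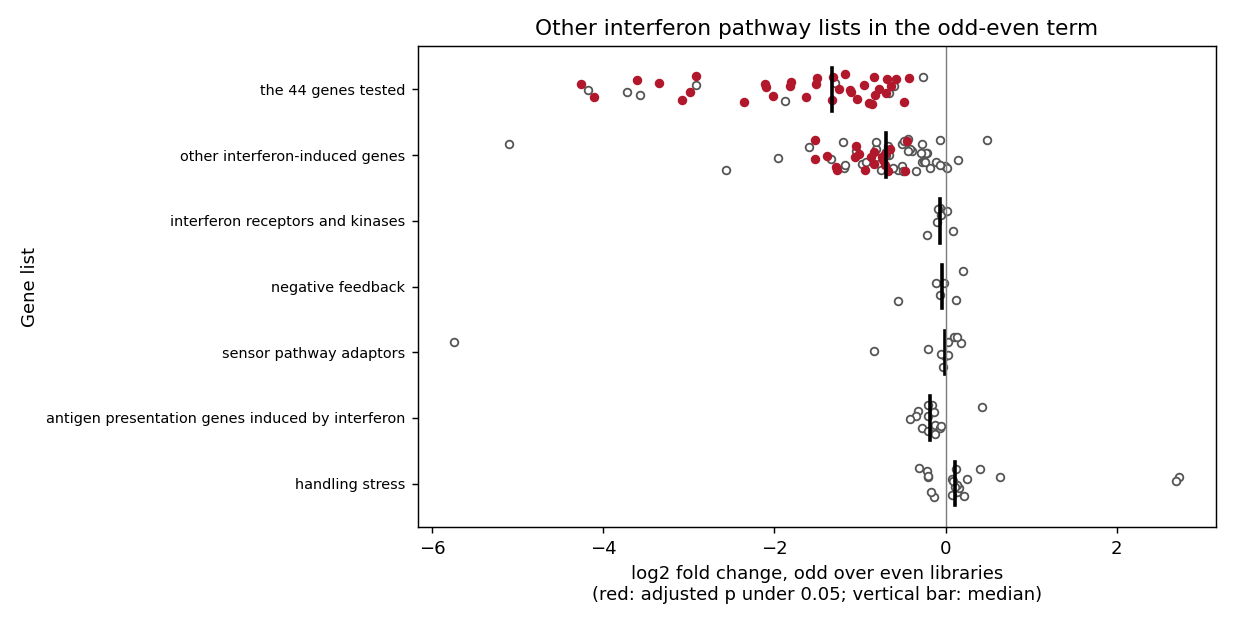
Each point is 1 tested gene, placed by its fitted log2 fold change of odd over even libraries; rows are gene lists, red marks an adjusted p under 0.05, and the vertical bar is the list's median. Red points are in the rows of the 44 genes and of the other interferon-induced genes, and the other 5 rows hold none.

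Between the sorted populations 0 of the 44 genes passed the test in any of 5 comparisons, in a fit of the population means with no term for the column number. A fit with that term called some of the 44 in 2 of the 5 comparisons, as given with the other alternatives. Without the term, the difference between odd and even libraries counts as spread within each population. The standard error of Irf7 was 1.01 in GFP+ against Thy1.1+ tdTomato+ cells, and 0.08 for odd against even columns in the fit with the term. The 0 calls therefore do not show that the populations were alike. In GFP+ against Thy1.1+ cells within the tdTomato+ gate 14.8% of tested genes passed, and the 44 genes had a median log2 fold change of -0.10 and a smallest edgeR adjusted p of 0.266. Within the tdTomato- gate the same comparison changed 0.164% of tested genes, and the 44 had a median of 0.12 and a smallest edgeR adjusted p of 0.659. For tdTomato+ against tdTomato- cells the background was 12.6% in GFP+ cells, where the median of the 44 was -0.23 and the smallest edgeR adjusted p 0.128. In Thy1.1+ cells the background was 0.0%, with 1063 genes at an unadjusted p under 0.05 in edgeR and 148 calls by DESeq2. There the median of the 44 was -0.09 and the smallest edgeR adjusted p 0.878. For the interaction of label and reporter, 0.443% of tested genes passed, and the 44 had a median of -0.20 and a smallest edgeR adjusted p of 0.639. At an unadjusted p under 0.05, edgeR gave 1 of the 44 in tdTomato+ against tdTomato- GFP+ cells and 0 in each of the other 4 comparisons, and DESeq2 called 1 in the same comparison and 0 elsewhere. The 5 comparisons share libraries and are not independent of each other. The backgrounds moved with single libraries. In GFP+ against Thy1.1+ tdTomato+ cells 2074 genes passed, against 481 without library 1 and 524 without library 2 of the tdTomato+Thy1.1+ cells. In tdTomato+ against tdTomato- GFP+ cells 1768 passed, and 458 without library 4 of the tdTomato-GFP+ cells.

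**Figure D5:**
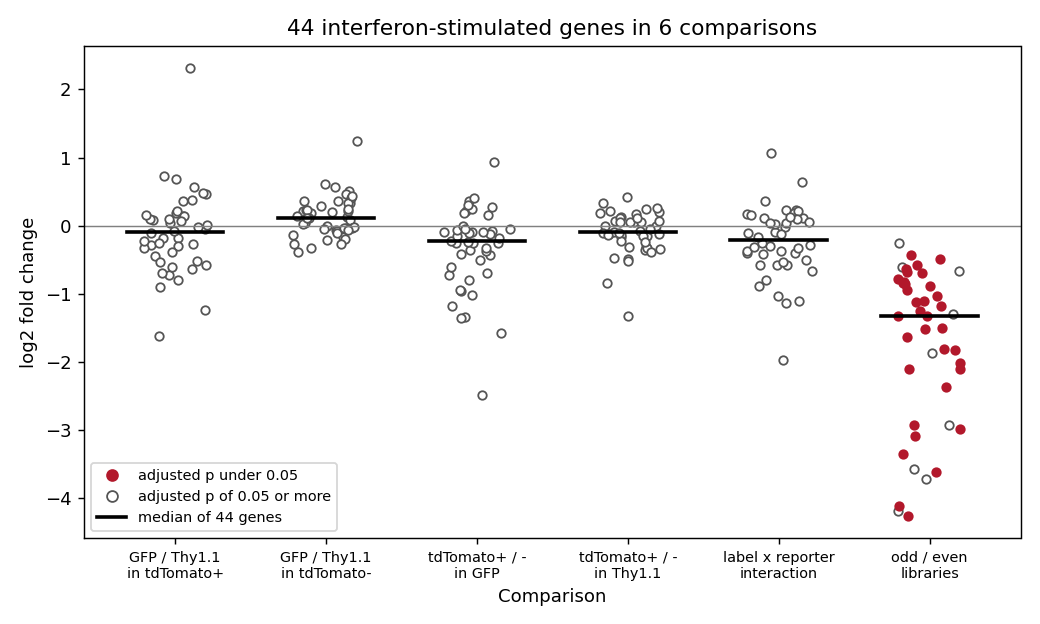
Each point is 1 of the 44 genes, placed by its fitted log2 fold change in 5 comparisons of populations and in odd against even libraries; red points passed at an adjusted p under 0.05 and black bars are medians. The 5 comparisons of populations come from the fit with no term for the column number. Red points stand in the odd-even column, whose median is -1.33, while the other medians lie between -0.23 and 0.12.

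Leaving out 1 library moved the median between populations in either direction. When each library was left out in turn, the median of the 44 genes ran from -1.14 without library 4 of tdTomato+GFP+ cells to 0.67 without library 2 of tdTomato+Thy1.1+ cells in GFP+ against Thy1.1+ tdTomato+ cells. For the tdTomato- gate it ran from -0.94 without library 4 of GFP+ cells to 0.81 without library 2 of Thy1.1+ cells. In tdTomato+ against tdTomato- GFP+ cells it ran from -1.17 without library 4 of the tdTomato+ cells to 0.70 without library 4 of the tdTomato- cells. In Thy1.1+ cells it ran from -0.74 without library 2 of the tdTomato+ cells to 0.68 without library 2 of the tdTomato- cells. Each of these extremes compares 1 odd library on one side with both parities on the other. The odd-even difference is therefore part of each, and the range does not measure how stable a difference between populations is.

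Libraries of like parity were therefore set side by side. In GFP+ against Thy1.1+ cells of the tdTomato+ gate, 22 of the 44 genes were lower in both the odd and the even pair, 9 were higher in both and 13 were mixed. Over all tested genes 34.9% were lower in both and 34.2% higher in both. Usp18 was lower in GFP+ cells in both pairs, with 15.2 CPM in GFP+ against 79.9 CPM in Thy1.1+ odd libraries and 125 CPM in GFP+ against 252 CPM in Thy1.1+ even libraries. Ifi208 was lower too, with 39.7 CPM in GFP+ against 108 CPM in Thy1.1+ odd libraries and 140 CPM in GFP+ against 227 CPM in Thy1.1+ even libraries. Ifitm3 went the other way, with 4.90 CPM in GFP+ against 1.39 CPM in Thy1.1+ odd libraries and 45.9 CPM in GFP+ against 8.82 CPM in Thy1.1+ even libraries. In all 3 genes the even library of each population was also the higher of its 2.

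In the tdTomato- gate GFP+ cells were lower than Thy1.1+ cells in both pairs for 9 of the 44 genes and higher in both for 18, with backgrounds of 29.5% and 29.3%. Ifitm3 was again higher in GFP+ cells in both pairs, at 2.77 CPM in GFP+ against 1.52 CPM in Thy1.1+ odd libraries and 23.8 CPM in GFP+ against 9.64 CPM in Thy1.1+ even libraries. In GFP+ cells, 28 of the 44 genes were lower in tdTomato+ than in tdTomato- cells in both pairs and 7 were higher in both, with backgrounds of 31.7% and 36.1%. Ifit1 was among the 28, with 9.63 CPM in tdTomato+ against 44.4 CPM in tdTomato- odd libraries and 159 CPM in tdTomato+ against 283 CPM in tdTomato- even libraries. In Thy1.1+ cells 18 were lower in tdTomato+ than in tdTomato- cells in both pairs and 12 were higher in both, with backgrounds of 29.3% and 31.1%.

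Full separation of populations was possible in only 5 of these genes. In the 39 genes with all odd libraries below all even ones, any 2 populations must overlap. The low counts that follow thus restate the split by column number and do not measure how alike the populations were. Of the 44, 0 were without overlap in GFP+ against Thy1.1+ tdTomato+ cells, 0 in the tdTomato- gate and 0 in tdTomato+ against tdTomato- Thy1.1+ cells. The share of all tested genes without overlap was 59.0%, 42.6% and 45.0% in the same 3 comparisons. In tdTomato+ against tdTomato- GFP+ cells 2 of the 44 had no overlap, Gbp2 and Sp100, named here after their values were seen, against 53.8% of tested genes. Gbp2 had 147 and 138 CPM in tdTomato+ libraries, against 85.7 and 128 CPM in tdTomato- libraries. Sp100, a component of nuclear bodies, had 502 and 757 CPM in tdTomato+ libraries, against 827 and 1100 CPM in tdTomato- libraries.

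Among the receptor and kinase genes some passed the test between populations and 0 of 8 by column number, where edgeR gave 1 at an unadjusted p under 0.05 and DESeq2 called 0. Of the 8, 5 were lower in tdTomato+GFP+ than in tdTomato+Thy1.1+ cells, beside 14.8% of all tested genes called and 954 called lower: Ifngr2, Ifnar1, Ifnar2, Il10rb and Jak1. The count was 2 without library 1 of the tdTomato+Thy1.1+ cells, Ifngr2 and Ifnar2, and 1 without library 2, Ifngr2. Jak1, a kinase of the interferon receptors, was at the threshold (edgeR adjusted p = 0.0499) and missed it in 7 of the 15 alternatives tried, with adjusted p up to 0.212. Against tdTomato-GFP+ cells, tdTomato+GFP+ cells were lower in 4, Ifngr2, Ifnar1, Ifnar2 and Jak1, and higher in 1, Ifngr1, beside 12.6% of all tested genes called and 895 called lower. In that comparison Ifngr2 and Ifnar1 passed in all 15 alternatives. Ifnar2 missed the threshold with only these 2 populations fitted (edgeR adjusted p = 0.0966), without library 3 or 4 of the tdTomato-GFP+ cells (0.0521 and 0.135) and without library 3 of the tdTomato+GFP+ cells (0.104). Jak1 missed it in 2 and Ifngr1 in 7 of the 15. These 2 comparisons share the tdTomato+GFP+ libraries. Ifngr2, the signalling chain of the interferon-gamma receptor, had 28.6 and 22.6 CPM in tdTomato+GFP+, 60.2 and 70.6 CPM in tdTomato+Thy1.1+, 79.0 and 93.3 CPM in tdTomato-GFP+ and 82.1 and 97.3 CPM in tdTomato-Thy1.1+ libraries, odd value first. The tdTomato+GFP+ libraries were below all 6 others, with log2 fold changes of -1.35 ± 0.18 against tdTomato+Thy1.1+ cells (edgeR adjusted p = 0.00351) and -1.75 ± 0.18 against tdTomato-GFP+ cells (edgeR adjusted p = 0.00203). Ifnar1, a chain of the type I interferon receptor, had 132 and 107 CPM in tdTomato+GFP+, 198 and 192 CPM in tdTomato+Thy1.1+, 224 and 273 CPM in tdTomato-GFP+ and 252 and 276 CPM in tdTomato-Thy1.1+ libraries. It too was lowest in the tdTomato+GFP+ libraries, at -0.70 ± 0.14 (edgeR adjusted p = 0.0143) and -1.05 ± 0.14 (edgeR adjusted p = 0.00446) in the same 2 comparisons. Against tdTomato+Thy1.1+ cells, the edgeR adjusted p of Ifnar1 was 0.0823 without library 1 and 0.0671 without library 2 of those cells. For odd against even columns, Ifngr2 and Ifnar1 had log2 fold changes of -0.10 ± 0.12 and -0.02 ± 0.10 (edgeR adjusted p = 0.914 and 0.989).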

How the data were processed

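The authors deposited 1 table of read counts per gene, which the values show to be unnormalized whole numbers. PolyA RNA was amplified with SMART-Seq v4, which does not mark strand, and sequenced as paired 50-base reads, per the labels. DESeq, without a version, appears in the submitters' processing notes; the aligner, counter and build were not given in the sources used here. Of 24116 rows, 8 had no gene name (0.0215% to 0.0264% of a library's counts) and were left out. GFP columns, numbered 3 and 4 where titles say 1 and 2, were matched to their population and not to a title.

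Genes were kept by edgeR's filter with a minimum count of 10 and scaled by TMM. R 4.3.3, edgeR 4.0.16 and limma 3.58.1 were used, with DESeq2 1.42.0 as an alternative. A robust quasi-likelihood fit with 4 population means left 4 residual degrees of freedom. A second fit added the parity of the column number and left 3. P-values were adjusted by Benjamini-Hochberg over all 13989 genes, with a threshold of 0.05. CPM uses TMM-scaled totals of named genes.

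Tested on simulated counts of 13989 genes, the odd-even fit recovered 76.0%, 68.0%, 70.0% and 90.0% of 50 genes each at folds of 0.25, 0.5, 2 and 4, with 14 false calls. The fit of GFP against Thy1.1 tdTomato-positive cells recovered 70.0%, 42.0%, 32.0% and 82.0%.

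Results of 1 gene outside the members are not reported here, though counts over lists include it. Members, role groups and lists were chosen with earlier results of these data known. Values in every library are given for 12 members listed by name and for up to 3 per role group with the smallest adjusted p for odd against even columns. Other values, the named list genes among them, were taken as the largest or as extremes. Gene overlap and shared 50-base stretches were computed from GENCODE M21 on GRCm38, and promoters came from RefSeq tables. Other scalings, filters, DESeq2, left-out libraries and populations, and a block for the column number were tried as alternatives.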

Additional observations from a re-analysis of the deposited data

How the results depend on the processing

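Between populations, the 0 calls among the 44 genes held in every scaling, filter and left-out library tried, except in tdTomato+ against tdTomato- GFP+ cells. There DESeq2 called 1 gene lower, and leaving out 1 library gave 0 to 1, the 1 being Sp100 both times. The column numbers were not taken as a pairing: over all genes, the 6 correlations between populations of the odd libraries' deviations lay between 0.0325 and 0.0560, under 0.1. That reading over all genes does not hold for the 44, where the column number took a median of 84.9% of the sum of squares. With a replicate block for odd and even numbers, 4 of the 44 genes were higher (Samhd1, Zbp1, Ifitm3, Parp9) and 5 lower (Ifi208, Ifit2, Sp100, Usp18, Ifit1bl1) in GFP+ than in Thy1.1+ tdTomato+ cells, and 10 were lower in tdTomato+ than in tdTomato- GFP+ cells. Over all 13989 tested genes the block called 2214 in GFP+ against Thy1.1+ tdTomato+ cells. It called 1856 in tdTomato+ against tdTomato- GFP+ cells, so calls among the 44 stand beside many others. Of the 44, the block called 0 in the other 3 comparisons.

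For odd against even libraries, the count of lower genes, 35, was 36 with RLE size factors, 37 with library totals, 41 with either other filter and 43 with DESeq2, and all 35 were among them each time. It was 19 without tdTomato-GFP+, 21 without tdTomato-Thy1.1+, 18 without tdTomato+Thy1.1+ and 34 without tdTomato+GFP+ cells, and 20 to 34 with 1 library left out. Fewer libraries leave fewer residual degrees of freedom. Over 17 settings 16 of the 35 passed each time, and no direction changed among the 29 genes given with values in every library. Over all genes, the count of 65 was 229 with DESeq2, 94 with a mean of at least 1 CPM, 89 with no filter, and 26 to 57 with libraries or a population left out. DESeq2 also called more genes between populations, 3164 against 2074 for GFP+ against Thy1.1+ tdTomato+ cells, 581 against 23 for the tdTomato- gate, 2974 against 1768 for tdTomato+ against tdTomato- GFP+ cells and 568 against 62 for the interaction. A fit of only the populations compared called 1546, 1 and 300 genes in the first 3 of these and 2 in tdTomato+ against tdTomato- Thy1.1+ cells. With 1 library left out, the counts over all genes ran from 481 to 2118 for GFP+ against Thy1.1+ tdTomato+ cells, from 0 to 75 for the tdTomato- gate, from 458 to 1801 for tdTomato+ against tdTomato- GFP+ cells and from 0 to 119 for the interaction. In the first of these Ifnar2 missed the threshold without library 2 of Thy1.1+ cells (edgeR adjusted p = 0.0551), and Il10rb without either of them (0.06 and 0.0549). Whatever else differs between odd and even libraries cannot be told apart from the column number.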

Other observations

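Of the 65 genes lower in odd libraries, 10 stood on none of the interferon lists: Amica1, Capn11, Cdk5rap1, Erdr1, Gm12250, Gm4951, H2-T24, Slfn5os, Tsc22d3 and Vat1, named after their values were seen. Absence from these lists does not place a gene outside the interferon response. Gm4951 shares 50-base stretches with Iigp1. Slfn5os, at -1.36 ± 0.19, went with the listed Slfn5, at -1.38 ± 0.19, in libraries that do not mark strand. H2-T24, a non-classical MHC class I gene, had a log2 fold change of -1.02 ± 0.10 for odd over even columns (edgeR adjusted p = 0.00734). Gm12250 had -1.32 ± 0.13 (edgeR adjusted p = 0.0109), and Erdr1 -0.85 ± 0.09 (edgeR adjusted p = 0.0121). The mean levels of these 3 genes over the 8 libraries were 54.5, 104 and 196 CPM.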
